A study of Mus musculus with 3 samples.

Results

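The miRNAs described here are the 5p arms of the mouse hairpins miR-6896 to miR-7094. They were taken by name from the probes of a plasma miRNA microarray, with any letter after the number and with miR-6912 left out. This gave 201 of the 1900 miRNA probes on the array. The study set plasma from male C57BL/6 mice, an inbred laboratory strain, aged 8 weeks, against each other in 3 groups: mice after a single bout of aerobic exercise, mice after a single bout of resistance exercise, and normally caged control mice. Plasma was taken 3 h after exercise from animals fasted overnight, and plasma of 3 mice was mixed into 1 pool per group. Each pool was hybridised to 1 array, so there were no replicates, no test was possible, and no error below covers mice, pools or arrays. The only error that could be measured was that of repeated spots on the same array.

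A miRNA hairpin is cut into a duplex of a 5p and a 3p arm, and one of them is usually kept by Argonaute and guides it to messenger RNAs through its seed, bases 2 to 8. Many mammalian hairpins sit inside introns of protein-coding genes. Some hairpins of this kind, called mirtrons, are released by splicing instead of by Drosha. In some mirtrons, but not all, the 5p arm begins at the splice donor, GU. Little is known of the function of single miRNAs of this block, and none is given here beyond that of the host gene.

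The mature sequences came from RefSeq (GRCm38.p6), which gave one for 177 of the 201 members. Those of 5 of the 10 brightest members are shown first, as examples of the probes that gave the most signal, with bases 2 to 8 in capitals:

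miR-6968-5p: aGGGGGCGagggggcccugugg

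miR-6944-5p: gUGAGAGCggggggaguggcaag

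miR-6910-5p: uGGGGGUAgggcaccagugggca

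miR-7045-5p: aGCGGGUGggggagggggacu

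miR-6931-5p: uGGGGUGGggagugggggacu

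Sequences of 9 members that stood apart in at least 1 comparison below follow, with the same bases in capitals:

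miR-6989-5p: uUGGGGACagaggcacaggaug

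miR-6896-5p: uUUGUAGGcgacgagaacccgu

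miR-7005-5p: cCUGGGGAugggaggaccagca

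miR-6987-5p: uGGGACAGggugacagggugag

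miR-6918-5p: uGCUGAGGacgggauuagguucu

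miR-7009-5p: uUGGGGUCaggggaccagagcu

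miR-6993-5p: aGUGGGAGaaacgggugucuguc

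miR-7057-5p: cAGGAGAGgacucaaguu

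miR-6919-5p: uAGGCCACuggagguggaauugu

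The 5 bright members printed above all hold runs of G, and G made up 63.6% of miR-6968-5p and 66.7% of both miR-7045-5p and miR-6931-5p. These 5 are the richest in G of the 10 brightest members, as far as those have a sequence. G made up 45.5% of both miR-6913-5p and miR-7005-5p, which are also among the 10 brightest. miR-6909-5p, another of them, likewise held less G than any of the 5 printed. miR-7045-5p and miR-6931-5p are the most alike of any members other than the miR-7094 pair. They have 4 edits between them, so each of their probes may also bind the other. miR-6896-5p, in contrast, held 31.8% G. miR-6968-5p lies on chr17:26935472-26935493 (plus strand) in the span of Phf1, which encodes a Polycomb-associated protein, and miR-6944-5p on chr13:55477754-55477776 (minus strand) in that of Dbn1, the gene of the actin-binding protein drebrin. miR-6989-5p lies on chr19:6346485-6346506 (plus strand) in the span of Map4k2, a kinase gene, miR-6896-5p on chr1:34117364-34117385 (plus strand) in that of Dst, a cytoskeletal linker gene, and miR-6918-5p on chr11:4891350-4891372 (plus strand) in that of Nipsnap1, a gene of a mitochondrial protein. Of the 177 placed members 175 lay within the span of a protein-coding gene, 154 of them on its strand and 21 where no strand was given for the gene, and 0 lay only in a gene on the other strand. The tables give gene spans and not exons, so whether a member is exonic or intronic was not determined. The members were spread over 19 chromosomes, with the most on chromosome 7 (18 members).

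Plasma was recognisable on all 3 arrays by blood and vessel markers. Red cell miR-451a had a raw intensity of 5741 in aerobic, 5245 in resistance and 3056 in control plasma, and myeloid miR-223-3p was detected on all arrays. Liver miR-122-5p stood at 0.68 (log2) in aerobic minus control and 0.22 in resistance minus control, and endothelial miR-126a-3p at 0.24 and 0.45. Red cell miR-16-5p stood above control by 0.82 (log2) in the aerobic and 1.24 in the resistance pool, and muscle miR-133a-3p at -1.55 and -0.77. The heart markers miR-499-5p and miR-208a-3p stayed below the detection threshold in all pools. Red cell miR-486a-5p stood at 0.26 in aerobic and 0.44 in resistance minus control, and muscle miR-1a-3p at -0.99 and -0.20. Differences of up to 0.32 in size lie within the spot scatter described below. Red cell, liver, endothelial and muscle markers thus differed past it in at least 1 exercise pool, though not every marker in both. Their part in the differences below was not tested.

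The 5p arms of the block were among the most often detected miRNAs in plasma. Detection meant a raw signal more than 2 SD of the array's blank spots over their mean. By this measure 186 of 201 members (92.5%) were detected in aerobic, 186 (92.5%) in resistance and 191 of 201 in control plasma. Over all 1900 miRNA probes the percentages were 71.8 in aerobic, 72.2 in resistance and 75.3 in control plasma. For 5p arms numbered 1000 or higher outside the block they were 67.9, 69.9 and 74.2 on the same arrays. All 3 arrays detected 184 members, and no array detected 9 of them, miR-6902-5p and miR-7055-5p among them, which are named only as examples from that count.

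Detection alone said little of level, because the threshold lay close to background. Of 174 probe-free spots, 4.02% passed it in the aerobic hybridisation, 20.1% in the resistance one and 78.7% in the control one. At 10 SD of the blanks, where between 1.15% and 1.72% of those empty spots passed, 157 members (78.1%) were detected in aerobic, 165 (82.1%) in resistance and 167 (83.1%) in control plasma. The percentages over all miRNA probes were 42.5, 46.6 and 52.1 on these arrays. For the 3p arms of the same hairpins they were 49.5, 57.5 and 68.0, so the arms stood further apart at the stricter threshold. At 2 SD the 3p arms had been detected at 90.5% in aerobic, 86.0% in resistance and 92.0% in control plasma.

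The block carried nearly the same share of all miRNA fluorescence on each array. Its share of the signal above background was 12.1% in aerobic, 11.8% in resistance and 12.0% in control plasma. The 3p arms carried 1.63%, 1.55% and 1.54% on those arrays, from nearly as many probes. Of the 100 brightest miRNAs by mean raw intensity 28 were members and 0 were 3p arms of the block, where members make up 10.6% of all probes. A probe's brightness depends on its own sequence as well as on the amount of its target, so these are shares of fluorescence and not of molecules, and the order of members below is one of spots.

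**Figure D1:**
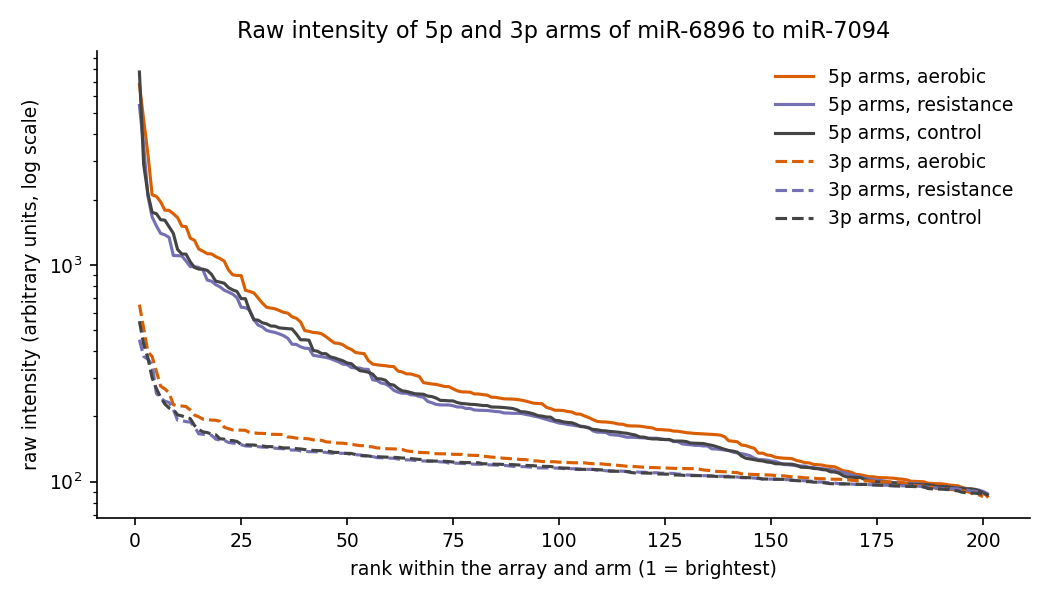
Raw intensity (log axis, arbitrary units) of every 5p arm (solid lines, 201 probes) and 3p arm (dashed lines, 200 probes) of miR-6896 to miR-7094, ranked from bright to dim within each array. The 5p lines lie above the 3p lines over most ranks. The aerobic array lies highest in the middle of the ranks. Medians over all 5p arms were 213 in aerobic, 185 in resistance and 189 in control plasma, against 123, 115 and 116 for the 3p arms. The brightest 5p spot was higher in control (7765) than in aerobic plasma (6797), and the dimmest was lowest in aerobic plasma (85.4).

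A small number of spots held much of this signal. miR-6968-5p, the brightest member and the 10th brightest miRNA of all, had a raw intensity of 6797 in aerobic, 5441 in resistance and 7765 in control plasma. It was thus the one among the 3 brightest members that was brightest in control. miR-6944-5p, the next, had 4674 in aerobic, 3558 in resistance and 2911 in control plasma. miR-6980-5p had 3248 in aerobic, 2079 in resistance and 2132 in control plasma. The 10 brightest, completed by miR-6910-5p, miR-7045-5p, miR-6935-5p, miR-6909-5p, miR-6913-5p, miR-6931-5p and miR-7005-5p, gave 38.9% of the block's signal in aerobic, 38.7% in resistance and 40.4% in control plasma. At the other end the 9 members detected nowhere had raw intensities from 85.4 to 97.9 in aerobic, 88.1 to 96.3 in resistance and 86.9 to 94.4 in control plasma.

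Raw intensity was highest in the aerobic pool for 179 of the 201 members, in the resistance pool for 9 and in control for 13. The aerobic array was brighter as a whole: before scaling its miRNAs stood a median of 0.20 (log2) above control over all 1321 miRNAs compared, and 0.21 over the 186 members among them. Spike-in spots stood 0.13 above control on that array for both spike probes. Differences from here on are therefore in log2 intensity after background correction and quantile normalization over the 3 arrays, and are relative to each array as a whole.

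**Figure D2:**
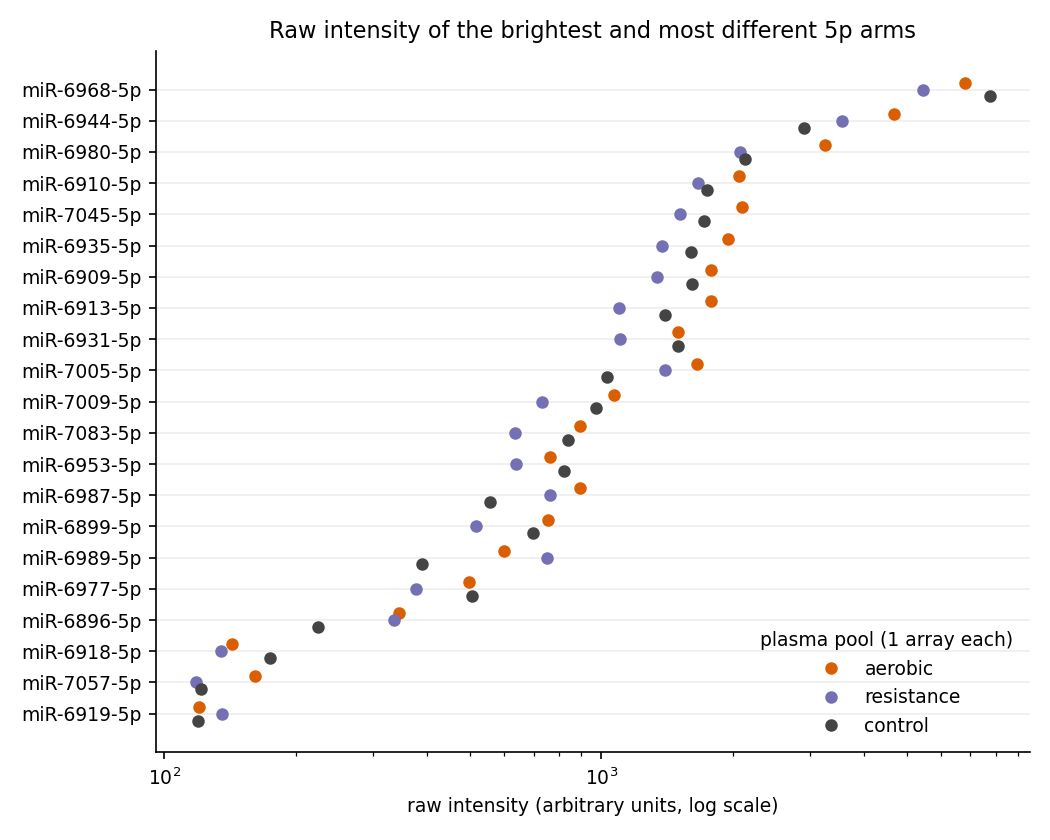
Raw intensity (log axis, arbitrary units) on each of the 3 arrays for the 10 brightest members and the 5 highest and 5 lowest members of each exercise pool against control. miR-6989-5p, miR-6896-5p, miR-6987-5p and miR-7005-5p lie above control in both exercise pools, as do miR-6944-5p and, by little, miR-6919-5p. miR-6918-5p lies below it in both, as do miR-6968-5p, miR-6953-5p and miR-6977-5p.

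The first comparison asked how aerobic exercise plasma differed from control plasma. Most members stood close to control. A handful stood higher, led by miR-6896-5p, and a smaller number lower, led by miR-6918-5p and miR-6953-5p. None of the 186 members detected on both arrays differed by 2-fold, a size reached upwards by 0% and downwards by 0.227% of all miRNAs compared.

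miR-6896-5p had a raw intensity of 344 in aerobic and 224 in control plasma. It stood at 0.45 above control, a fold of 1.37. miR-6987-5p, from the span of Pcnx3, had 893 in aerobic and 556 in control plasma, a difference of 0.37. miR-6989-5p had 599 in aerobic and 389 in control plasma, a difference of 0.38. The other 2 of the 5 highest were miR-7057-5p at 0.36, with 161 in aerobic and 121 in control plasma, and miR-7005-5p at 0.35, with 1653 in aerobic and 1032 in control plasma. miR-7057-5p, an arm of 18 bases in the span of the kinase gene Lrrk1, is the one dim spot among these.

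On the lower side miR-6918-5p had 143 in aerobic and 174 in control plasma. It stood at -0.62, a fold of 1.53 lower, and in the authors' normalized intensities the fold was 2.30. miR-6953-5p had 764 in aerobic and 823 in control plasma and stood at -0.46. miR-6968-5p stood at -0.42, with the raw values given above. miR-7009-5p, in the span of the gene for the phosphatidylserine-binding protein annexin A5, stood at -0.32 with 1070 in aerobic and 973 in control plasma, higher in raw and lower after scaling. miR-6931-5p stood at -0.31, with 1501 in aerobic and 1499 in control plasma, so its position too came from the scaling of the brighter aerobic array.

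Repeated spike-in spots gave an SD of 0.16 for a difference between single spots, and 2 SD of it, 0.32, was used as the limit of spot scatter. Past it, 6 members stood higher and 3 lower in aerobic plasma, 3.23% and 1.61% of the members compared. The same shares over all miRNAs compared were 3.79% higher and 2.04% lower, so the members did not exceed the background. The split depended on the processing: with arrays scaled to their medians it was 14 higher and 2 lower, with no scaling 42 higher and 1 lower, and in the authors' normalized intensities 11 higher and 29 lower. At an offset of 0 it was 12 higher and 13 lower, and with blank subtraction 17 higher and 16 lower. Shares over all miRNAs under these alternatives are not given here, so the counts describe the processing and not the members. The median of the members was -0.03, against 0.00 over all miRNAs and 0.00 over the 3p arms. The spikes are far brighter than most members, and dim Negative Control 1 spots gave a wider limit of 0.77, which 0 members passed here.

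The next comparison asked the same of resistance exercise. Here miR-6989-5p was 2.08-fold above control, and miR-6896-5p, miR-7005-5p and miR-6987-5p followed at 1.44-fold to 1.55-fold. The lower members were more numerous and closer together, none below miR-6918-5p at 1.48-fold lower. miR-6989-5p was the 1 member at 2-fold or more of the 185 compared, a size reached upwards by 0.225% and downwards by 0.0749% of all miRNAs compared.

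miR-6989-5p had a raw intensity of 749 in resistance and 389 in control plasma, a difference of 1.06 that was also past the limit of the dim control spots. It was 1.60-fold (0.68) above the aerobic pool as well, and no other member was higher than miR-6989-5p in either comparison of the resistance pool. With arrays scaled to their medians its difference from control was 0.99, just short of 2-fold. miR-6896-5p had 336 in resistance and 224 in control plasma, a difference of 0.64. miR-7005-5p, in the span of Lama5, which encodes a laminin chain of basement membranes, had 1398 in resistance and 1032 in control plasma, a difference of 0.55. miR-6987-5p had 764 in resistance and 556 in control plasma, a difference of 0.53. The fifth highest, miR-6919-5p, stood at 0.27, within spot scatter.

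miR-6918-5p had 135 in resistance and 174 in control plasma. Its difference was -0.56, a fold that was 2.11 in the authors' normalized intensities. miR-7009-5p had 733 in resistance and 973 in control plasma, a difference of -0.44. miR-6899-5p, in the span of the transcription factor gene Klf7, had 517 in resistance and 699 in control plasma, a difference of -0.42. miR-6977-5p, in the span of the phosphatase gene Ptprs, had 377 in resistance and 506 in control plasma, also -0.42. miR-7083-5p, in the span of Dock6, had 635 in resistance and 841 in control plasma, a difference of -0.40. These last 4 were lower in raw intensity too, so their direction did not rest on the scaling.

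Past spot scatter 4 members stood higher and 11 lower in resistance plasma, 2.16% and 5.95% of the members compared. Over all miRNAs compared 5.61% stood higher and 3.22% lower, and over 5p arms numbered 1000 or higher outside the block 2.08% and 6.94%. With blank subtraction the members' split was 14 higher and 22 lower, and in the authors' normalized intensities 11 higher and 43 lower. These 2 splits again stand without shares over all miRNAs. The median of the members was -0.05, against -0.01 over all miRNAs and 0.02 over miRNAs numbered under 1000. It was -0.04 both over the 3p arms and over those 5p arms outside the block. Of the 185 members 60 lay above 0 (32.4%), against 44.2% of all miRNAs compared. The same share was 36.8% for those 5p arms outside the block and 29.2% for the 3p arms. Of the 15 past the limit 14 were among the 67 brightest members, with a mean raw intensity of at least 263. Among the next 67 by brightness 0 members passed the limit. The correction adds 50 to every intensity before the logarithm, which pulls the differences of dim spots towards 0, and how far this set this pattern was not tested.

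**Figure D3:**
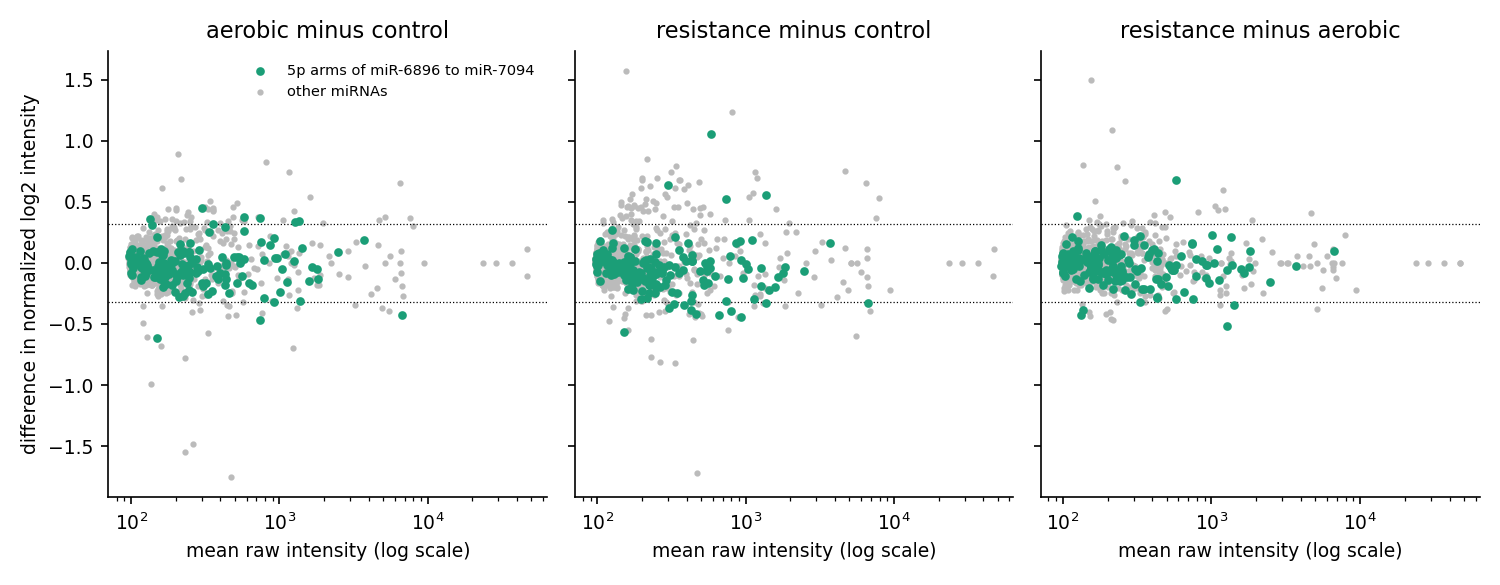
Difference in normalized log2 intensity against mean raw intensity over the 3 arrays (log axis), for each pair of pools; points are miRNAs detected on both arrays, in green the 5p arms of miR-6896 to miR-7094, and dotted lines mark 2 SD of spot scatter. Most green points lie between the lines, and miR-6989-5p at 1.06 is the highest of them in resistance minus control.

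The control array is shared by both comparisons above, so a high or low control spot moves both in the same direction. Resistance minus aerobic is the difference of the 2 comparisons and cannot tell an off control spot from a difference of both exercise pools. In it miR-6896-5p stood at 0.18, miR-6987-5p at 0.16, miR-7005-5p at 0.21, miR-6968-5p at 0.10 and miR-6918-5p at 0.05, all within spot scatter. miR-6989-5p, which was also past the limit in both comparisons with control, stood at 0.68.

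The exercise pools were then compared with each other. miR-6989-5p was again the highest member, and miR-6993-5p stood lowest. miR-6993-5p, placed in the span of the fatty acid desaturase gene Fads1, had 981 in resistance and 1723 in aerobic plasma, a difference of -0.52. Its control value of 1121 lay nearer that of the resistance pool. miR-7057-5p had 118 in resistance and 161 in aerobic plasma, a difference of -0.42 that was a fold of 2.13 in the authors' normalized intensities. miR-6925-5p, in the span of the kinesin gene Kif1c, had 122 in resistance and 165 in aerobic plasma, a difference of -0.39. miR-6913-5p stood at -0.35 and miR-6975-5p at -0.32. The first 3 of these 5 stood at 0.33, 0.36 and 0.31 in aerobic minus control and at -0.19, -0.06 and -0.07 in resistance minus control.

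On the higher side of resistance minus aerobic miR-6919-5p stood at 0.38, with 136 in resistance and 120.1 in aerobic plasma, where it lay under the 10 SD threshold. miR-7036a-5p, miR-7078-5p and miR-7014-5p stood between 0.22 and 0.23, within spot scatter. Of 184 members compared 2 were higher and 5 lower past the limit, 1.09% and 2.72%, against 1.91% higher and 1.3% lower over all miRNAs compared. None differed by 2-fold, a size reached upwards by 0.153% and downwards by 0% of all miRNAs compared. With arrays scaled to their medians the split was 2 higher and 19 lower, with no scaling 1 higher and 69 lower, and in the authors' normalized intensities 11 higher and 15 lower. At an offset of 0 it was 6 higher and 11 lower, and with blank subtraction 11 higher and 16 lower. No shares over all miRNAs stand beside these splits, and with no scaling the median of all miRNAs was itself -0.19. The median of the members was -0.02.

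Members detected on 1 of 2 arrays gave lower bounds only. The largest was miR-6920-5p, with 90.5 in aerobic, 96.0 in resistance and 107 in control plasma. It was detected in control alone and was at least 1.19-fold lower in either exercise pool, within spot scatter. All other bounds were at most 1.07-fold, the next being those of miR-6949-5p and miR-6932-5p, at least 1.07-fold and 1.05-fold lower in resistance than in aerobic plasma. On the higher side the largest were miR-7093-5p, at least 1.04-fold higher in resistance than in control plasma. miR-7073-5p was detected in resistance and not in aerobic plasma, but its raw intensities of 98.0 in resistance and 98.3 in aerobic plasma give no direction.

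In no hairpin did both arms pass spot scatter in the same comparison. Hardly any 3p arm passed it at all, so this count was nearly fixed beforehand and says little of how the arms go together. Both arms were printed for 199 hairpins, and both were detected on all 3 arrays for 157. In aerobic minus control 9 5p arms and 0 3p arms passed spot scatter among the 165 hairpins with both arms compared, and in resistance minus control 15 and 0 among 158. The SD across hairpins was 0.15 for 5p and 0.07 for 3p arms in aerobic minus control, and 0.19 for 5p and 0.08 for 3p arms in resistance minus control. In resistance minus aerobic 7 5p arms and 1 3p arm passed the limit among 157 hairpins. The 3p spots were also dimmer, so the added 50 pulled them closer to 0, and its part in the contrast between arms was not tested. Across hairpins the differences of both arms had a Spearman correlation of 0.10 in aerobic minus control, 0.08 in resistance minus control and 0.22 in resistance minus aerobic, which describes 165, 158 and 157 hairpins that share the same arrays.

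The hairpins whose arms lay furthest apart were picked for that distance and are given as values only. For miR-6989 in resistance minus control the 5p arm stood at 1.06 and the 3p arm at 0.02, with 3p raw intensities of 99.6 in resistance and 97.6 in control plasma, close to background. For miR-6987 the 5p arm stood at 0.53 and the 3p arm at -0.07, and for miR-6896 at 0.64 and 0.06. In aerobic minus control miR-6918-5p stood at -0.62 with its 3p arm at -0.06, and miR-7009-5p at -0.32 with its 3p arm at 0.12. The 3p arm of miR-7009 was one of the brighter of these, at 173 in aerobic and 143 in control plasma. In resistance minus aerobic miR-6919-5p stood at 0.38 with its 3p arm at -0.19, and miR-6993-5p at -0.52 with its 3p arm at 0.06.

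**Figure D4:**
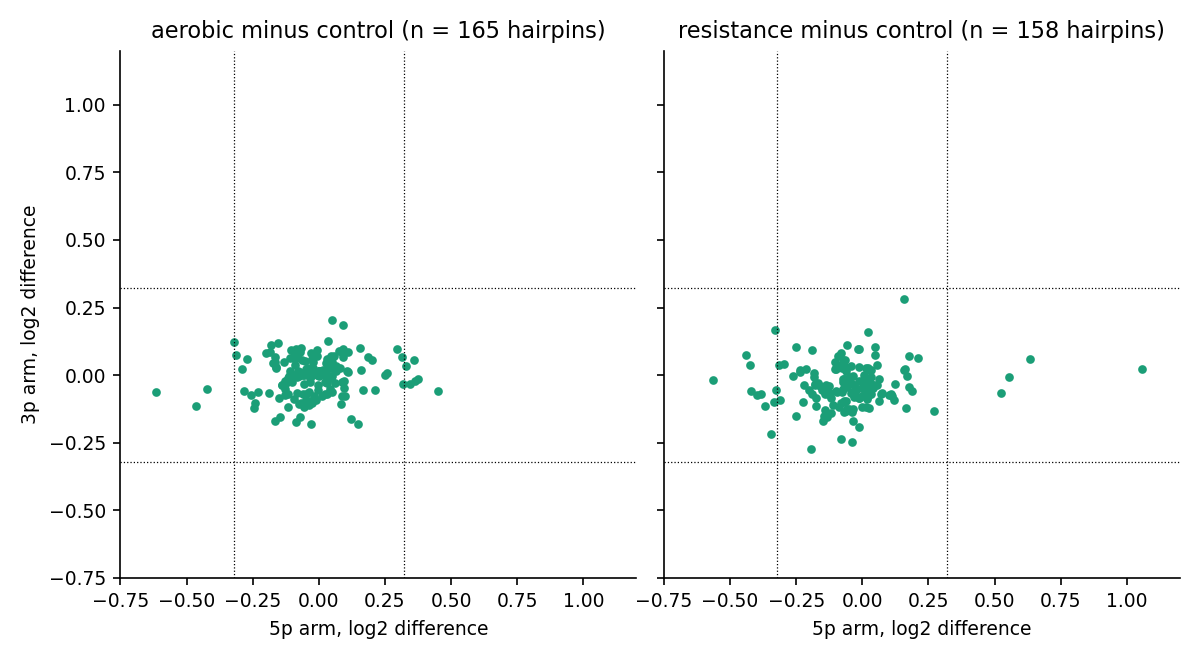
Log2 difference of the 5p arm (x axis) against that of the 3p arm of the same hairpin (y axis), in aerobic minus control (165 hairpins) and resistance minus control (158 hairpins), on equal scales; dotted lines mark 2 SD of spot scatter. Points spread along the x axis and none passes the limit on the y axis.

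The members tended to be rich in G, with a wide range from 13.0% to 66.7%. G made up a median of 43.5% of the bases of the 177 members with a sequence, against 14.3% for the 3p arms, 31.8% for 5p arms numbered 1000 or higher outside the block and 26.3% over all 1614 miRNA probes with a sequence. The motif GGG, searched in the mature RNA as written, occurred in 134 of 177 members (75.7%), against 30.3% of all miRNAs with a sequence, and GGGG, each case of which also holds GGG, in 67 (37.9%), against 11.3%. The median length was 22 bases, as over all miRNAs. A GU start, as at a splice donor, was found in 15 members (8.47%), miR-6944-5p and miR-6977-5p among them, against 3.72% of all miRNAs. Most members do not begin with GU, which does not tell whether they are mirtrons.

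Brightness went with G content within the block. Members with up to 35% G had median raw intensities of 105 in aerobic, 99.1 in resistance and 99.4 in control plasma, and 18 of 27 were detected on all arrays. Those over 55% G had medians of 537 in aerobic, 434 in resistance and 455 in control plasma, and 16 of 16 were detected on all arrays. Over the 177 members the Spearman correlation of G content with mean raw intensity was 0.60. It was 0.59 over the 181 5p arms numbered 1000 or higher outside the block. Over all miRNAs with a sequence it was 0.39, and over the 176 3p arms with a sequence -0.24. The correlation with the content of G and C together was 0.67 and 0.63 in 5p and 3p arms of the block. Over those 5p arms outside the block it was 0.74, and over all miRNAs with a sequence 0.66. These correlations run across probes of the same arrays, which are not independent samples. The differences in aerobic minus control had medians of 0.01 in the lowest and -0.04 in the highest class of G content. In resistance minus control these medians were 0.00 and -0.12, and because the highest class is also the brightest, composition and brightness cannot be told apart.

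**Figure D5:**
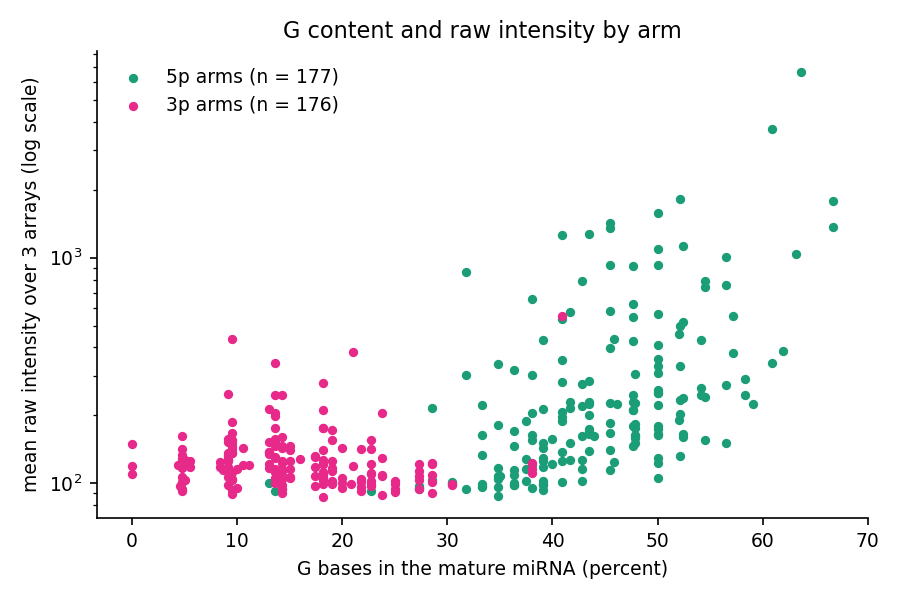
Percent of G bases in the mature miRNA (x axis) against mean raw intensity over the 3 arrays (y axis, log) for 177 5p arms and 176 3p arms of miR-6896 to miR-7094. The 5p arms lie to the right, with a median of 43.5% G against 14.3%, and the 2 brightest of those with a sequence have 63.6% and 60.9% G.

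Some members share a seed, and no share over all miRNAs stands beside the counts given here. Bases 2 to 8 were shared with another member by 39 of the 177 members, in 18 groups, 3 of them with 3 members. The sequences of these 3 groups are shown because a shared seed is the part of a miRNA by which targets are mainly found, with bases 2 to 8 in capitals:

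miR-6922-5p: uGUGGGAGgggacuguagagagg

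miR-6993-5p: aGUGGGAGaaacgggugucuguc

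miR-7008-5p: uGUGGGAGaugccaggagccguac

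miR-7030-5p: uGGGGAGGuggcugugcuaguc

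miR-7075-5p: cGGGGAGGaggacaugguuuu

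miR-7076-5p: aGGGGAGGugguauggucuca

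miR-6911-5p: uGGGCUGAgugggucuguggcau

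miR-7028-5p: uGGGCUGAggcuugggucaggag

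miR-7079-5p: aGGGCUGAggcagugaguccug

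Members with one seed stood at different distances from control. Of the groups printed above only miR-6993-5p passed spot scatter in aerobic minus control. Of the GUGGGAG group, whose seed miR-705 also has, miR-6993-5p stood at 0.33 in aerobic minus control, against 0.03 for miR-6922-5p and -0.08 for miR-7008-5p. miR-6922-5p had raw intensities of 314 in aerobic, 247 in resistance and 254 in control plasma, and miR-7008-5p 245 in aerobic, 218 in resistance and 224 in control plasma. Of the GGGGAGG group miR-7030-5p, in the span of the GTPase gene Rab35, stood at 0.32, just within spot scatter. miR-7075-5p stood at -0.08 and miR-7076-5p at 0.09. miR-7030-5p had 435 in aerobic, 330 in resistance and 298 in control plasma. The GGGCUGA group lay between -0.03 and 0.07 in aerobic minus control and between -0.16 and 0.06 in resistance minus control.

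Among the brighter groups of 2, miR-7005-5p and miR-6975-5p, which share CUGGGGA, stood on opposite sides of control in the resistance pool, at 0.55 and -0.33. miR-6975-5p had 275 in resistance and 325 in control plasma. miR-7047-5p and miR-6965-5p (GAGGGAG) stood at -0.13 and -0.07 there, miR-6907-5p and miR-7019-5p (UCUGGGA) at 0.00 and -0.37, and miR-7016-5p and miR-6967-5p (AGGGAGG) at -0.03 and 0.03. Only miR-7005-5p, miR-6975-5p and miR-7019-5p of these 8 passed spot scatter in resistance minus control.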

How the data were processed

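Plasma miRNA was measured on 3 single-colour 3D-Gene arrays, 1 per pool, with a red dye that the labels call both Hy5 and Cy5, per the labels' protocols. The labels speak of cells in the extraction step and of plasma elsewhere, and the series text names a human chip although all miRNA probes have mouse names; both were taken as mouse plasma. The deposited files hold, per the file headers, linear raw intensity of 3200 spots on every array, besides the authors' background-subtracted and globally normalized intensity. From the values, the last was scaled to a median of 25 and left empty near background. The authors' value table of the series repeats it to within 0.05, so that table is linear, with a column median of 25 and no centring of single miRNAs.

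The blank mean of each array was taken over its 896 blank spots without the lowest and highest 5%. A miRNA was detected above that mean plus 2 SD, which gave the same calls as the authors' empty cells on all 3 arrays. Raw intensities were corrected with normexp (limma 3.58.1, R 4.3.3, offset 50), and the 1900 miRNA probes were quantile normalized. Each group had 1 array, so values, counts and spot scatter are given and no test. The processing was run on simulated arrays with known differences of 2-fold or more, to check their direction. These arrays had no difference in brightness as a whole. The run therefore does not bear on the smaller differences described here. Genome positions and gene spans are those of RefSeq GRCm38.p6; strands of genes came from its promoter table. The number of arrays limits the precision.

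The members, comparison lists and plasma markers were chosen with earlier results of these data known. Named members are the 10 brightest by mean raw intensity, the 5 highest and 5 lowest of each comparison, the 2 largest bounds in each direction, the 3 hairpins per comparison with arms furthest apart, and members of shared-seed groups of 3 and of the 4 brightest groups of 2. Alternatives were an offset of 0, blank subtraction, the authors' normalized intensities, median scaling, no scaling, detection at 10 SD, no detection filter and 1 common detection distance.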

Additional observations from a re-analysis of the deposited data

Results flagged for a closer look

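One signal outside the miRNA probes met a rule for a closer look. Of the 174 printed spots that carry no probe, 4.02% lay above the detection threshold in the aerobic hybridisation, 20.1% in the resistance one and 78.7% in the control one, the value that called for the closer look. Their median raw intensities were 91.0 in aerobic, 94.1 in resistance and 96.3 in control plasma. Detection of dim members at 2 SD on the control array has to be read beside this, and its part in the higher count there was not tested.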

How the results depend on the processing

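The 3 medians of the members moved with the processing, and the scatter of single spots does not measure the spread of a median. In the authors' normalized intensities they were -0.15 in aerobic minus control, -0.18 in resistance minus control and -0.03 in resistance minus aerobic. The medians of all miRNAs compared were -0.07, -0.13 and -0.04 there. With median scaling the members' median in resistance minus aerobic was -0.09, against -0.01 over all miRNAs. The largest moves came with no scaling, where the aerobic pool stood at 0.21 against control and the resistance pool at -0.27 against the aerobic pool. Without scaling the median of all miRNAs compared moved to 0.20 and -0.19 in these comparisons. Counts moved more, but no shares over all miRNAs under the alternatives stand beside them. The counts that follow therefore describe the processing and not the members. In aerobic minus control the members past 2 SD of spot scatter, 9 as reported, were 25 at an offset of 0, 33 with blank subtraction, 40 in the authors' normalized intensities, 16 with median scaling and 43 with no scaling; miR-6918-5p was then the 1 member at 2-fold under each of the first 3. In resistance minus control the 15 became 30, 36 and 54 under those 3, and the members at 2-fold were 3 with blank subtraction and in the authors' intensities and 0 with median scaling. In resistance minus aerobic the 7 became 17, 27 and 26 under those 3, 21 with median scaling and 70 with no scaling, and the members at 2-fold were 2 with blank subtraction and 3 in the authors' intensities. An offset of 0 or subtraction no longer pulls dim spots towards 0 by construction, but how far this raised the counts was not tested. The cause of the other moves was not tested either. Without the 3 brightest miRNAs in the denominator, the block's share of signal was 16.4% in each of the aerobic, resistance and control pools. Among the 5 highest and 5 lowest members of each comparison, the differences recomputed under the alternatives, none past spot scatter changed sign. With no scaling 5 within it did: miR-7009-5p (0.15) and miR-6931-5p (0.00) in aerobic minus control, and miR-7014-5p (-0.04), miR-7036a-5p (-0.16) and miR-7078-5p (-0.06) in resistance minus aerobic. No paired analysis was possible because each group has 1 array. Without replicates no array could be left out.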

Other observations

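Members that share a host gene or a number were looked at for their position and name, not for their values. Srebf1, the gene of a regulator of lipid synthesis, spans miR-6921-5p and miR-6922-5p, which stood at -0.07 and 0.03 in aerobic minus control and at -0.14 and -0.08 in resistance minus control. Ankrd52 spans miR-6914-5p and miR-6915-5p, at -0.02 and 0.21 in aerobic minus control and 0.06 and 0.01 in resistance minus control. Cmip spans miR-7077-5p and miR-7078-5p, at 0.00 and -0.24 in aerobic minus control and -0.04 and -0.02 in resistance minus control. All of these lay within spot scatter. miR-7094-1-5p and miR-7094b-2-5p, which differ by 1 edit and whose probes may not tell them apart, were placed in no protein-coding gene but in the span of Igh, the immunoglobulin heavy chain locus. They had 105 and 124 in aerobic, 108 and 115 in resistance and 99.4 and 115 in control plasma.

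Bases 2 to 8 of 39 members recur in miRNAs of the chip outside the block, a count without a share over all miRNAs beside it. miR-6921-5p shares them with miR-423-5p, miR-7048-5p with miR-185-3p, and miR-6958-5p with miR-30c-1-3p and miR-30c-2-3p, the passenger arms of miR-30c. These pairs are named as examples chosen after the sequences were seen.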
